A study of Mus musculus with 12 samples.

Results

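The genes that code for ionotropic and metabotropic glutamate receptor subunits, GABA-A and GABA-B receptor subunits and glycine receptor subunits were examined in rods and in whole retina of the mouse. They were chosen by gene symbol: every row whose name starts with Gria, Grik, Grin, Grid or Grm and a digit, with Gabr or Gabbr, or with Glra and a digit, together with Glrb. Grm6 and Grik1 were left out. The rule found 52 of the 56748 genes in the table: 50 receptor subunit genes, Grid2ip (delphilin, a scaffold protein) and Grin1os, an RNA antisense to Grin1. All symbols belonged to 1 row each.

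RNA came from mice homozygous for RiboTag, an HA tag on the ribosomal protein Rpl22 that appears in cells with Cre recombinase, and every mouse carried i75-Rod-Cre, a rhodopsin-driven Cre that acts in rods. Control mice carried Pkm2fl/+ (1 floxed Pkm2 allele) and Pkm2 Rodko mice carried Pkm2fl/fl, so the controls also lacked 1 allele of Pkm2 in rods, and a mouse without Cre was not among the groups. The Rod-TRAP libraries held polyribosomal RNA pulled down with the tag (rods), and the input libraries held total retinal lysate (retina), with 3 libraries for each genotype and fraction and 12 in all. The deposited description gives an age of 2 weeks, whereas the study's methods give 2 months, and the difference was not resolved here. Nothing in the labels says which libraries came from separate animals, so p-values measure the spread between these libraries.

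Glutamate is the transmitter of photoreceptors, bipolar cells and ganglion cells, whereas amacrine and horizontal cells signal through GABA or glycine. Ionotropic receptors are ion channels built of several subunits, and metabotropic receptors act through G proteins, often on presynaptic terminals, where they limit release. Rods themselves release glutamate in darkness at a ribbon synapse, and most postsynaptic receptors of the retina are placed on the cells that rods and cones feed.

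Libraries held 13458890 to 22790073 reads, and levels are given as reads after TMM scaling of all 12 libraries to 1 common size (scaled reads). Pkm, the targeted gene, was lower in Pkm2 Rodko libraries, with deposited values of 22246 to 23751 against 51049 to 54504 in control rods, although a value per gene does not separate the deleted exon from the rest. All 19 rod markers were higher in rods than in retina, with a median log2 fold change of 1.92 in control mice. Markers of other cells remained in rods libraries: of 48 markers of bipolar, amacrine, horizontal and ganglion cells, 44 were lower in rods, with a median log2 fold change of -2.97, and 12 cone markers had a median of -0.70. Prdm8 (0.77) and Lrit3 (0.66), both on the bipolar list, were higher in rods in control mice, and the bipolar sums here and below include them. With scaling by total reads alone they stood at 0.22 (limma adjusted p = 0.069) and 0.11 (limma adjusted p = 0.493). Whether these 2 genes mark bipolar RNA in the rods libraries was not tested. Summed over its list, the amacrine level was 5228 to 6098 scaled reads in control rods and 24203 to 25275 in control retina, the bipolar level 9886 to 11301 and 29626 to 31136, and the Mueller glia level 20052 to 22437 and 87197 to 99974. The part of that RNA in the receptor levels below was not tested. In such bulk samples, fewer cells of a type and less RNA per cell cannot be told apart.

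Upstream sequence is shown first for Grm8 and Grin2d, the members that stood higher in rods than in retina on the common scale, since the letters recognised by the rod transcription factors CRX and NRL are known. The windows hold 250 bases before the transcription start, from RefSeq on build GRCm38.p6, an older build than the GRCm39 of the deposited data. Capitals mark the CRX core letters TAATC, or GATTA on the other strand. The window before the first Grm8 start is chr6:28135147-28135396, minus strand, that before the second is chr6:28134422-28134671, minus strand, and the Grin2d window is chr7:45866682-45866931, minus strand.

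Grm8 start 1: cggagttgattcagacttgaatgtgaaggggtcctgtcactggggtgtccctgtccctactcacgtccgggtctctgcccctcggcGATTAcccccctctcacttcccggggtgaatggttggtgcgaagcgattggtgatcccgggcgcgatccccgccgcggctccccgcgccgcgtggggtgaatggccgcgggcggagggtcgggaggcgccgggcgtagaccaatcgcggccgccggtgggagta

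Grm8 start 2: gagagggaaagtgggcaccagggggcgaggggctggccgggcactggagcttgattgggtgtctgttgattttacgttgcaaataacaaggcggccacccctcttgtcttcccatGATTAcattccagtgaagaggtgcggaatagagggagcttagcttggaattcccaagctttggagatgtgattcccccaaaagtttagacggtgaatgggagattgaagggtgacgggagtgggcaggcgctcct

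Grin2d: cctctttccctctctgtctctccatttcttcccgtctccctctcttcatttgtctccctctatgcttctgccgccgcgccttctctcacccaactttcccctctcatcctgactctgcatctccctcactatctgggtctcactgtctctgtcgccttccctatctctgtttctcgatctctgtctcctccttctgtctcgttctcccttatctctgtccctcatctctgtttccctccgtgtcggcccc

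The core was chosen as a motif after the windows were seen. Both Grm8 windows held 1 copy of the core, and the third Grm8 start, the Grin2d, the Gabbr1 and the Grik5 windows held none. These letters stood in 19.8% of 32851 mouse windows of the same length and in 9 of the 45 windows of members. By gene, 8 of the 37 members with a window held them, the others being Gabra2, Gabra5, Gabra6, Gabrp, Gabrr1, Gabrr2 and Grin1os. A gene can have several windows, and the share by gene was not counted over all genes. The longer CRX site TAATCC, which contains the core, was present in 6.25% of windows and the NRL letters TGCTGA in 16.1%, both strands counted. Of the 45 windows of members, 3 held TAATCC and 12 held TGCTGA. Neither was found in the windows of Grm8, Grin2d, Gabbr1 or Grik5. The Grik5 and Gabbr1 windows were 75.2% and 66.0% G and C, against a median of 52.4% over all windows, and the Grin2d window was 54.4%.

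The first question was which receptor genes were detected in the rods libraries, which also held RNA of other cells. At least 10 reads in every library of a fraction were found for 29 of 52 members in rods and 46 of 52 in retina. Of the 56748 genes in the table, 13015 in rods and 16161 in retina met that threshold. Gabrp and Gabra6 had no read in rods and 1 and 2 reads over all 6 retina libraries. Gabre, the GABA-A epsilon subunit, had no read in any of the 6 rods libraries and 31 reads over the 6 retina libraries, so that it was at least 6.44-fold lower in rods, with the bound set at 3 reads over the rods libraries. Grin1os had 1 read in rods and 47 in retina, and 45.2% of its exon bases lie opposite exons of Grin1. Because strand was not stated for the counting, reads of that pair cannot be told apart.

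In control mice, 50 members had a scaled mean of at least 1 in a group and were tested between rods and retina (limma on log2 of scaled reads + 1, Benjamini-Hochberg adjusted over 25584 genes). Grm8 and Grin2d were higher in rods, 47 members were lower and Grin3b passed in neither direction. Over all 25584 genes the corresponding shares were 23.5% and 35.5%. The median log2 fold change of the members was -3.02, against -0.37 for all genes, and the largest adjusted p among the 49 called members was 0.0179, that of Grin2d. In Pkm2 Rodko mice the counts were again 2 higher and 47 lower, against 23.9% and 35.1% of all genes, with a median of -3.30 over the members and -0.32 over all genes.

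The members did not spread evenly. Grm8, Grin2d, Gabbr1, Grik5 and Grin3b lay between 0.68 and -0.72, and the other 45 tested members lay between -2.20 and -4.36, around the median of -2.97 of the markers of inner retinal neurons. For each of the 45, all rods libraries lay below all retina libraries in both genotypes, a separation that was not counted over all genes. In Pkm2 Rodko mice, Gabre left out, they lay between -1.75 for Gabra5, which had 1 to 4 reads in the rods libraries, and -4.35. Gabre and Grin1os, with no read in control rods, and Gabre, with none in Pkm2 Rodko rods, entered at fitted values that are not bounds, and setting them at the bound of 3 reads left the medians at -3.02 and -3.30. The first 5 places in the order were taken by these 5 genes in both genotypes and under each of the 4 scalings tried. Of the 48 inner neuron markers, 1 (Prdm8) had a higher rod to retina ratio than Grm8 and 2 (Prdm8 and Lrit3) had a higher ratio than Grin2d. A higher ratio than Gabbr1 and Grik5 was found for 4.

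**Figure D1:**
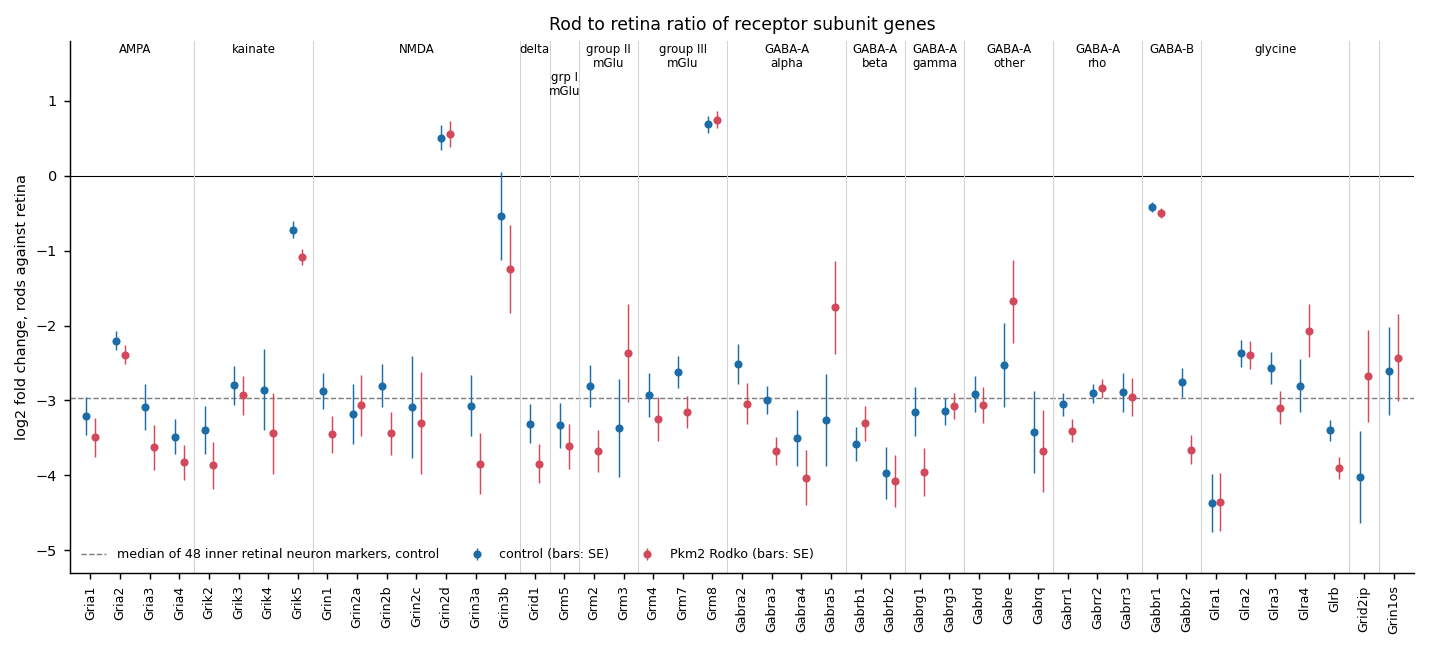
Log2 fold change of rods against retina (y axis, scaled reads + 1) for 45 of the 50 tested members, grouped by receptor class, in control (blue) and Pkm2 Rodko mice (red), with bars for the SE and a dashed line at the median of 48 inner retinal neuron markers in control mice. Grm8 and Grin2d lie above 0 in both genotypes, Gabbr1, Grik5 and Grin3b lie between -0.41 and -1.25, and the others lie between -2.20 and -4.36 in control mice.

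Among the metabotropic receptors, Grm8 codes for mGlu8, a group III receptor known from photoreceptor terminals, where glutamate lowers calcium entry and release. It gave 612, 627 and 755 scaled reads in the control rods libraries and 414, 462 and 365 in the control retina libraries. The Pkm2 Rodko libraries held 634, 725 and 769 in rods and 420.5, 405 and 439 in retina. Rods and retina did not overlap in either genotype. The log2 fold change was 0.68 ± 0.11 (SE) in control mice (limma adjusted p = 8.4e-05) and 0.75 ± 0.11 in Pkm2 Rodko mice (limma adjusted p = 3.4e-05).

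That difference depended on the scale. Scaling by total reads alone moved the median of all genes from -0.37 to -0.76, at which Grm8 stood at 0.13 with an adjusted p of 0.307, still the highest of the members. Relative to the median of all genes, Grm8 was 1.05 higher on the TMM scale and 0.90 higher on the scale of total reads. In control mice, the other 6 metabotropic glutamate receptor genes were all lower in rods, with the group II genes Grm2 and Grm3, which lower cyclic AMP, at -2.81 and -3.36, the group III genes Grm4 and Grm7 at -2.92 and -2.62, and Grm5, a group I receptor that activates phospholipase C, at -3.33.

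Shares inside a receptor family do not depend on the scale between libraries. Per kilobase of exons, and without Grm6, Grm8 held 86.8%, 80.8% and 90.2% of the group III signal in control rods and 36.1%, 40.03% and 33.6% in control retina. In Pkm2 Rodko mice the mean shares were 91.3% ± 0.32 (SD, n = 3) in rods and 39.8% ± 1.1 in retina. Grm7 and Grm4 held the rest, with Grm7 at 8.24% ± 1.8 in control rods and 34.9% ± 1.8 in control retina.

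Among the 7 NMDA receptor genes, Grin2d codes for GluN2D, a subunit that gives slowly decaying currents with weak magnesium block. Its scaled reads were 208, 182 and 248 in control rods and 116, 152 and 185 in control retina, where the highest retina library exceeded the lowest rods library. In Pkm2 Rodko mice they were 232, 227 and 209 in rods and 139.9, 170.3 and 144 in retina, without overlap. The log2 fold change was 0.51 ± 0.17 in control mice (limma adjusted p = 0.0179) and 0.56 ± 0.17 in Pkm2 Rodko mice (limma adjusted p = 0.0105), and its sign turned to -0.039 in control mice with scaling by total reads and to -0.084 on the deposited values. Without control retina replicate 1 the value fell to 0.33 (adjusted p = 0.108), and without control rods replicate 3 to 0.39 (adjusted p = 0.091). An antisense transcript, Gm45441, covers 9.66% of its exon bases.

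The GluN2 family was made up of different shares in the libraries of rods and retina. Grin2d held 95.2%, 82.8% and 93.1% of the GluN2 signal per kilobase in control rods and 43.6%, 48.9% and 49.4% in control retina, and over both genotypes the 6 rods libraries (82.8% to 95.3%) did not overlap the 6 retina libraries (43.6% to 50.9%). Grin2a, Grin2b and Grin2c, the other glutamate-binding subunits, were at -3.18, -2.80 and -3.08 between rods and retina. Grin1, the subunit that every NMDA receptor needs, had 70.4, 109 and 82.7 scaled reads in control rods and 614, 605 and 690.2 in control retina, a log2 fold change of -2.87 ± 0.24. Grin3a was at -3.07. Grin3b, likewise a glycine-binding subunit, was measured with few reads, at most 9 in a rods library, and 32.1% of its exon bases lie opposite Tmem259. Its log2 fold change was -0.54 ± 0.59 in control mice (limma adjusted p = 0.449) and -1.25 ± 0.59 in Pkm2 Rodko mice (limma adjusted p = 0.0812), and with rods and retina paired by replicate number the latter passed (adjusted p = 0.0217).

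Among the kainate receptor genes, Grik5 codes for GluK5, a high-affinity subunit that forms channels only together with GluK1, GluK2 or GluK3. It gave 604, 615 and 666 scaled reads in control rods and 1020.1, 923 and 1178 in control retina. The Pkm2 Rodko libraries held 609, 512 and 472 in rods and 1035, 1214 and 1119.9 in retina. Rods were lower without overlap in both genotypes, with a log2 fold change of -0.72 ± 0.11 in control mice (limma adjusted p = 4.1e-05) and -1.08 ± 0.11 in Pkm2 Rodko mice (limma adjusted p = 4.6e-07). Grik2, Grik3 and Grik4 lay lower still, at -3.40, -2.80 and -2.86 in control mice. Of the kainate signal per kilobase, Grik1 not counted, Grik5 held 94.1%, 93.8% and 93.8% in control rods and 73.2%, 77.2% and 79.5% in control retina.

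All 4 AMPA receptor genes, which code for the channels of fast excitatory transmission, were lower in rods. Gria2, whose edited subunit makes the channel nearly impermeable to calcium, had the smallest difference, with 189.9, 211 and 211 scaled reads in control rods and 934, 971 and 917 in control retina (log2 fold change -2.20 ± 0.12, limma adjusted p = 6.6e-10). Gria4 had the largest, with 73.7, 164 and 90.6 scaled reads in control rods and 1217, 1169 and 1103 in control retina (-3.48 ± 0.24, limma adjusted p = 5.2e-09). Gria1 and Gria3 lay between, at -3.21 and -3.09. Per kilobase, Gria2 made up 26.8% ± 8.1 of the AMPA signal in control rods and 14.0% ± 0.45 in control retina, and Gria4 32.2% ± 1.2 and 42.7% ± 0.94. The delta receptor gene Grid1 was at -3.31. Grid2ip, with 32 to 52 scaled reads in control retina, had 6.55, 0.930 and 0 in control rods (-4.02 ± 0.61, limma adjusted p = 3.7e-05), and in Pkm2 Rodko mice its value was -2.67 ± 0.61.

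**Figure D2:**
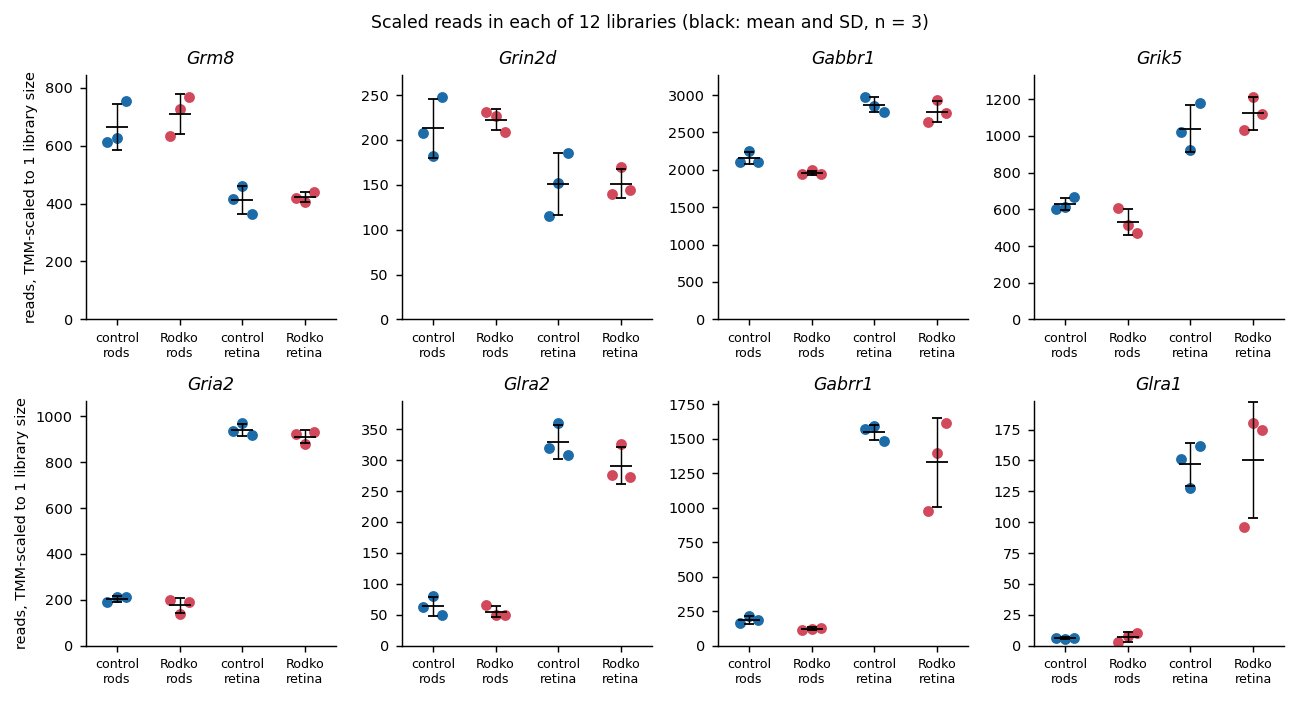
Scaled reads (y axis, from 0) in each of the 12 libraries for 8 members, with control libraries in blue, Pkm2 Rodko libraries in red, and the mean and SD of 3 libraries in black. Grm8 is higher in rods than in retina in every library, Gabbr1 and Grik5 are 1.33-fold to 2.11-fold lower by group means, and Gria2, Glra2, Gabrr1 and Glra1 are 4.61-fold to 23.8-fold lower in control mice.

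GABA-B receptors are pairs of Gabbr1, which binds GABA, and Gabbr2, which couples to the G protein and brings the pair to the surface. Gabbr1 was the most abundant member per kilobase in control rods, at 278 ± 10.3 scaled reads per kilobase (SD, n = 3), and followed Gabrr1 and Gabrr2 in control retina, at 369.5 ± 13. Its scaled reads were 2110.4, 2247 and 2107 in control rods and 2977, 2850.1 and 2779.8 in control retina. The Pkm2 Rodko libraries held 1947, 1993 and 1949.7 in rods and 2644, 2933 and 2761 in retina. The rods libraries were lower without overlap, with a log2 fold change of -0.41 ± 0.067 in control mice (limma adjusted p = 7.0e-05) and -0.50 ± 0.067 in Pkm2 Rodko mice (limma adjusted p = 9.2e-06), where the medians of all genes were -0.37 and -0.32.

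Gabbr2 did not follow Gabbr1. It had 118, 206 and 181 scaled reads in control rods and 1119.8, 1044 and 1172 in control retina, a log2 fold change of -2.75 ± 0.19 (limma adjusted p = 7.3e-09). Of the GABA-B signal per kilobase, Gabbr2 made up 6.09%, 9.61% and 9.08% in control rods and 30.4%, 29.8% and 32.9% in control retina, and over both genotypes 4.03% to 9.61% in rods against 29.8% to 33.5% in retina.

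**Figure D3:**
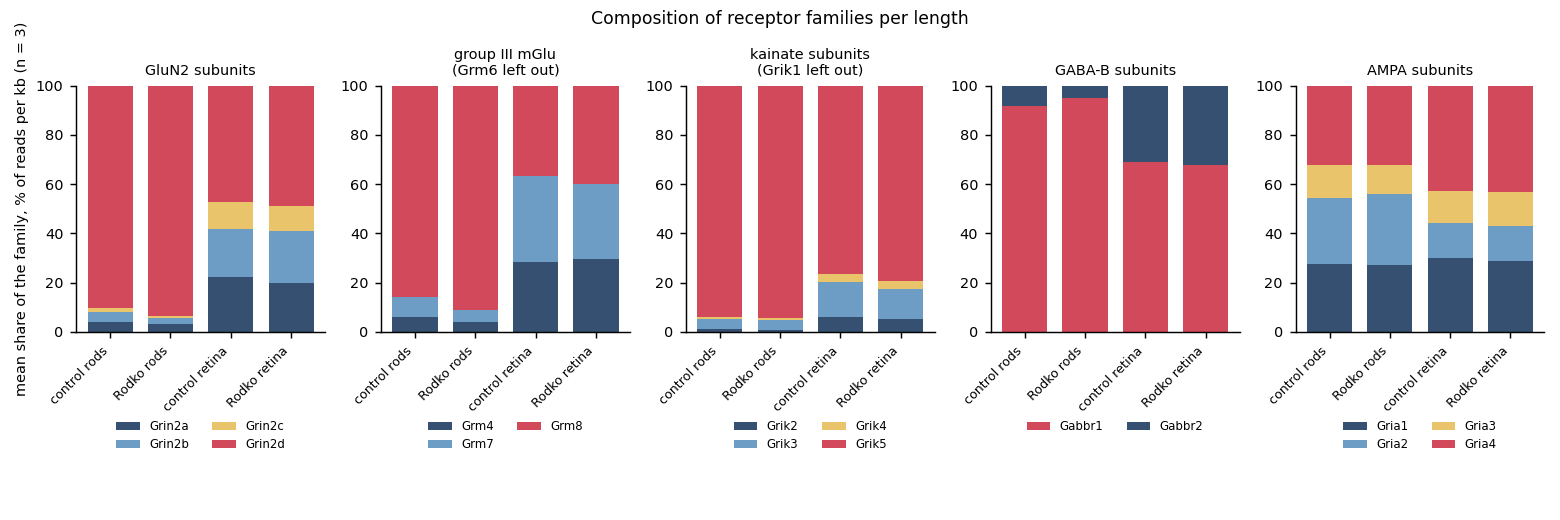
Mean share of each subunit gene in its family (y axis, % of scaled reads per kilobase, 3 libraries a group, no error bars), for 5 receptor families in rods and retina of both genotypes. Grin2d, Grm8, Grik5 and Gabbr1 (red in the first 4 panels) take a larger share in rods than in retina, Grin2d for instance 90.4% against 47.3% in control mice, whereas Gria4 (red in the last panel) takes 32.2% against 42.7%.

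All 17 tested GABA-A subunit genes, which code for chloride channels, were lower in rods, with a median of -3.14. The rho subunits Gabrr1 and Gabrr2, which form the slow GABA receptors of bipolar cell terminals, were the most abundant members in control retina, at 677 ± 24 and 570.4 ± 9.002 scaled reads per kilobase. In control rods they were at 82.0 ± 12 and 75.9 ± 6.7, next in order after Gabbr1 and Grik5 (122 ± 6.4). Gabrr1 had 162, 216 and 184 scaled reads in control rods and 1568, 1589.7 and 1485 in control retina (-3.05 ± 0.15, limma adjusted p = 2.5e-10). Gabrr2 had 157, 147 and 175 scaled reads in control rods and 1192, 1188 and 1222 in control retina (-2.91 ± 0.13, limma adjusted p = 7.1e-11). Gabrr3, the remaining rho subunit, was at -2.89 ± 0.26. High levels in rods libraries did not by themselves mark a high ratio, and Gabrr1 and Gabrr2, which lay within 1 SD of each other in rods, stood above Grm8 (67.2 ± 7.9) there.

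The beta subunit genes Gabrb1 and Gabrb2 were among the 8 members with the lowest ratios. Gabrb2 had 16.4, 59.5 and 23.8 scaled reads in control rods and 416, 528 and 449 in control retina (-3.96 ± 0.35, limma adjusted p = 8.4e-08). Gabrb1 had 18.01, 18.6 and 12.7 scaled reads in control rods and 229, 179 and 211 in control retina (-3.58 ± 0.23, limma adjusted p = 2.8e-09).

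Of the alpha subunits, which form the GABA site with beta and set the response to benzodiazepines, Gabra4 was the lowest in ratio, with 9.82, 16.7 and 12.7 scaled reads in control rods and 173, 151 and 144 in control retina (-3.50 ± 0.37, limma adjusted p = 7.9e-07), and Gabra2 the highest, at -2.51 ± 0.27, with Gabra3 and Gabra5 at -2.99 and -3.26. The gamma subunits Gabrg1 and Gabrg3 were both at -3.15. Gabrq, the theta subunit, had 0, 2.79 and 1.59 scaled reads in control rods and 17.5, 20.7 and 29.0 in control retina (-3.42 ± 0.55, limma adjusted p = 5.8e-05). Gabrd, the delta subunit of extrasynaptic receptors, was at -2.92 ± 0.24.

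The 5 glycine receptor genes were all lower in rods, and by unequal amounts. Glra1, the adult alpha subunit, had the lowest ratio of all members, with 6.55, 5.58 and 6.36 scaled reads in control rods and 151, 128 and 162 in control retina, 23.8-fold lower by group means (-4.36 ± 0.39, limma adjusted p = 1.0e-07). Glra2, the alpha subunit prominent in development, had 62.2, 80.01 and 49.3 scaled reads in control rods and 319, 359.9 and 309 in control retina, 5.16-fold lower (-2.37 ± 0.18, limma adjusted p = 2.0e-08). Glrb, the beta subunit that anchors the receptor to gephyrin, had 108, 127 and 111 scaled reads in control rods and 1314, 1204 and 1162 in control retina (-3.40 ± 0.14, limma adjusted p = 6.0e-11). Glra3 and Glra4 were at -2.57 and -2.80. Of the alpha signal per kilobase, Glra1 held 7.83% ± 2.1 in control rods and 25.7% ± 3.4 in control retina, and Glra2 59.5% ± 2.9 and 44.1% ± 3.6.

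Grm8, Grin2d, Gabbr1 and Grik5 together made up 50.0%, 42.9% and 49.6% of the signal per kilobase of all 50 subunit genes in the control rods libraries, against 12.7%, 12.5% and 13.5% in control retina. In Pkm2 Rodko mice their shares were 52.4%, 54.9% and 50.7% in rods and 15.1%, 14.3% and 13.1% in retina. These 4 genes were picked for their ratio, so the shares are a description.

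Other genes of the same synapses, from 4 lists, showed both directions. Of 15 genes of glutamate and GABA transport, 3 were higher in rods and 12 lower in control mice, and the 3 were Slc17a7, which loads glutamate into vesicles (1.34), and the glutamate carriers Slc1a7 (1.16) and Slc1a2 (0.46). Of 7 transmitter enzymes 1 was higher and 6 were lower. Of 18 auxiliary subunits 17 were lower, with Cacng7, a partner of AMPA receptors, at -0.37, and Lhfpl4, a partner of GABA-A receptors, was higher (0.19). Of 20 scaffold genes 3 were higher (Dlg1, Homer1 and Homer3) and 14 lower. With scaling by total reads, Slc1a2, Dlg1, Homer1 and Lhfpl4 turned negative, at -0.086, -0.087, -0.19 and -0.36, while Slc17a7 and Slc1a7 stayed higher, at 0.79 and 0.61. The medians were -2.90, -2.70, -2.76 and -2.30 for the 4 lists in this order.

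The next question was whether loss of Pkm2 changed the receptor genes in rods. Genotypes were compared within rods on the deposited values, which are reads divided by a size factor for each library (limma on log2 of the value + 1, 20658 genes). No member passed the adjusted threshold in 48 tested, and of all genes 0% were higher and 0.0194% lower. At an unadjusted p under 0.05, 0 members were higher and 10 lower, against 1.37% and 3.41% of all genes. edgeR with TMM also called 0 after adjustment, with 9 lower at an unadjusted p under 0.05 against 3.505% of all genes, and DESeq2 called 0, with 6 against 1.93%. The members' log2 fold changes were negative for 39 of 48, with a median of -0.33 against 0.0060 over all genes.

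The 5 members with the smallest p all code for GABA or glycine receptor subunits. Gabrr1 had deposited values of 127, 169 and 143 in control rods and 87.2, 97.5 and 104 in Pkm2 Rodko rods, without overlap (-0.59 ± 0.17, limma adjusted p = 0.932). Gabbr2 had 92.3, 161 and 140.5 against 96.3, 56.8 and 64.2, where 1 Pkm2 Rodko library reached above the lowest control (-0.85 ± 0.25, limma adjusted p = 0.932). Glrb had 84.6, 99.9 and 86.3 against 74.0, 49.3 and 49.1, without overlap (-0.67 ± 0.22, limma adjusted p = 0.932). Their differences did not hold up against the number of genes tested.

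Gabra3 had 67.9, 112 and 59.2 against 40.5, 39.7 and 53.9, without overlap (-0.78 ± 0.27, limma adjusted p = 0.932). In all, 7 of the 48 members were lower without overlap between genotypes and 0 were higher, against 5.4% and 4.49% of all genes. The 7 were Gabbr1, Gabra3, Gabrg1, Gabrr1, Glrb, Grm2 and Grm7. For Gabbr1 the values were 1652, 1762 and 1633 against 1517, 1572 and 1535, a difference of -0.13 ± 0.083.

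Markers of several other retinal cell types also had negative medians, and none of them passed the adjusted threshold in the fit of rods libraries alone. The median log2 fold change of Pkm2 Rodko against control rods was -0.51 for 13 amacrine markers, -0.35 for 12 ganglion cell markers, -0.35 for 12 Mueller glia markers and -0.28 for 19 bipolar markers, and 0.047 for 19 rod markers. It was -0.11 for 4 horizontal cell markers, -0.10 for 12 cone markers, -0.089 for 8 microglia markers and -0.30 for 7 endothelial markers. Of 48 inner neuron markers 42 were negative and 14 were lower at an unadjusted p under 0.05. By limma in 1 fit of all 12 libraries, the smallest adjusted p was 0.0452 for these markers and 0.0939 for the members. In that fit 23 of 48 markers and 13 of 50 members were lower at an unadjusted p under 0.05, against 5.97% of all genes. Summed over the list, amacrine markers ranged from 5228 to 6098 scaled reads in control rods and 4519 to 4833 in Pkm2 Rodko rods, bipolar markers from 9886 to 11301 and 8779 to 11048, ganglion cell markers from 1788 to 2201 and 1262 to 1924, and Mueller markers from 20052 to 22437 and 16371 to 19171. No bipolar, amacrine, ganglion cell or Mueller marker was at 0 in any rods library. The part of these cells in the members' differences was not tested.

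The 48 members other than Grm8, Grin2d, Gabbr1 and Grik5 summed to 2476 to 3666 scaled reads in control rods and 1945 to 2328 in Pkm2 Rodko rods, without overlap. Grm8 and Grin2d had differences of 0.10 ± 0.12 and 0.083 ± 0.15 between genotypes in rods, and Grik5 -0.24 ± 0.12. Control rods replicate 2, the library with the most reads, held the highest control value of 34 of the 48 tested members and of 29 of the 48 inner neuron markers. How often it was highest over all genes was not counted. Without that library the members' median was -0.13 and that of the inner neuron markers -0.27, with 4 of 47 members lower at an unadjusted p under 0.05 against 3.70% of all genes. That count was 5 without Pkm2 Rodko rods replicate 2 (1.98% of all genes) and 6 without control rods replicate 3 (2.92%). It was 7 without Pkm2 Rodko rods replicate 3 (2.60%). Without control rods replicate 1 (3.88%) or Pkm2 Rodko rods replicate 1 (4.25%) it stayed at 10.

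**Figure D4:**
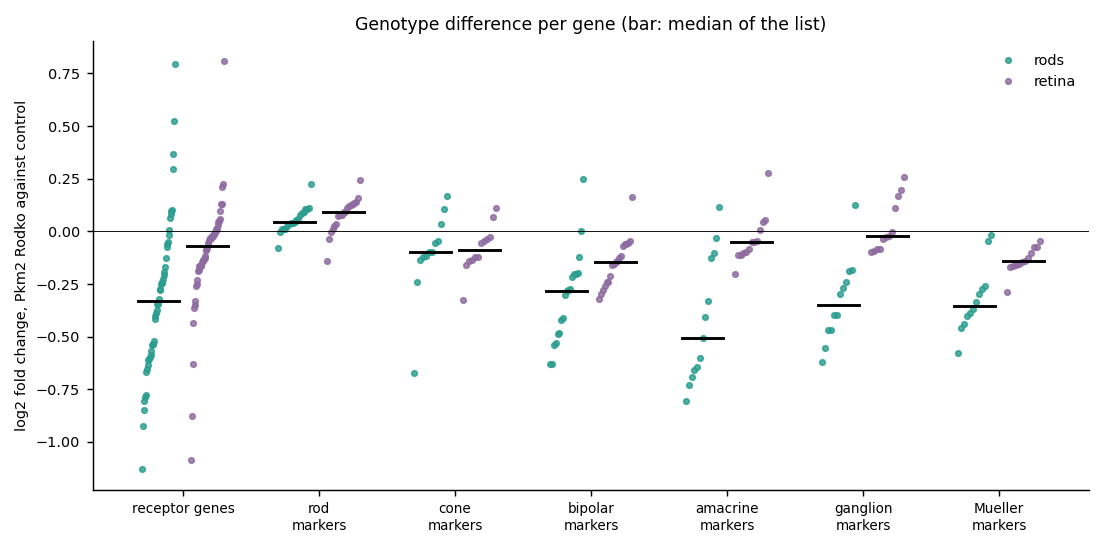
Log2 fold change of Pkm2 Rodko against control (y axis, deposited values + 1) for each gene, in rods (green) and in retina (purple), for the members and for 6 lists of cell type markers, with a black bar at the median of each list. In rods the members' median of -0.33 lies among those of the bipolar, amacrine, ganglion and Mueller lists (-0.28 to -0.51), and that of the rod markers is 0.047.

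In whole retina, none of 50 tested members passed the adjusted threshold between genotypes, against 0% higher and 0.00391% lower of 25590 genes, and the median was -0.071. At an unadjusted p under 0.05, 3 members were lower and 0 higher, against 2.06% and 2.12% of all genes, and edgeR and DESeq2 called 0 after adjustment, with 4 and 1 lower at an unadjusted p under 0.05 against 2.37% and 1.004% of all genes. Glra4 had deposited values of 81.8, 68.2 and 51.5 in control and 43.3, 37.1 and 46.9 in Pkm2 Rodko retina, without overlap (-0.63 ± 0.24, limma adjusted p = 0.947). Gabra5, the alpha subunit of extrasynaptic receptors, had 27.3, 29.8 and 18.9 against 6.30, 19.0 and 11.4 (-1.09 ± 0.42, limma adjusted p = 0.947). Gabrg1 had 149, 143 and 138 against 108, 110.3 and 119, without overlap (-0.35 ± 0.15, limma adjusted p = 0.947).

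Grm7, a group III receptor of low glutamate affinity, had 294, 281 and 254 against 216, 221 and 257 (-0.26 ± 0.12, limma adjusted p = 0.947). The groups overlapped. In retina 3 members were lower without overlap (Glra4, Gabrg1 and Glrb) and 1 higher (Grin3b), against 4.76% and 4.53% of all genes.

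Pkm2 Rodko retina replicate 1 held the lowest value of its group for 34 of 50 tested members. The same held for 27 of 48 inner neuron markers, including 16 of 19 bipolar markers, and was not counted over all genes. Gabrr1, for instance, had 1156, 1663 and 1947 in the 3 Pkm2 Rodko retina libraries against 1837, 1883 and 1757 in the controls. Without that library the members' median was -0.020, with 28 of 50 negative in place of 37. Leaving out any 1 of the 6 retina libraries gave 0 to 9 members lower at an unadjusted p under 0.05, where the share of all genes ran from 1.37% to 3.79%, and 2 members were higher without control retina replicate 3.

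The last comparison asked whether the genotype difference in rods differed from that in retina. No member of 50 passed the interaction test over 25584 genes, where 0 of all genes were called in either direction by limma, and edgeR and DESeq2 also called 0 members, with 10 and 9 more negative at an unadjusted p under 0.05 against 3.60% and 2.74% of all genes. At an unadjusted p under 0.05, 5 members were more negative in rods by limma and 0 more positive, against 2.6% and 1.81% of all genes, and leaving out any 1 of the 12 libraries gave 2 to 9 more negative, against 2.001% to 4.53%, with 2 more positive without control rods replicate 1 or 2. With rods and retina paired by replicate number, 1 member was more negative in place of 5, against 2.84% of all genes, and 0 of 48 inner neuron markers in place of 8. The smallest p was that of Gabbr2, with a level of 168 ± 45 scaled reads (SD, n = 3) in control rods and 92.4 ± 27 in Pkm2 Rodko rods, with 1112 ± 65 and 1144 ± 17 in retina (difference of log2 fold changes -0.90 ± 0.27, limma adjusted p = 0.977). The members' median interaction was -0.27, that of the 48 inner neuron markers was -0.26, and without control rods replicate 2 these were -0.042 and -0.15.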

How the data were processed

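Polyribosomal RNA of rods and total RNA of retina were measured by RNA-seq in 12 libraries. Per the labels and the submitters' processing notes, the authors used CASAVA 1.8.2, HISAT2, DESeq2, edgeR and build GRCm39. The counter, its strand setting and the annotation are not given in the sources used here. The deposited values are a signal, reads of a gene divided by a size factor of its library, set separately for rods and retina and rounded. At least 99.97% of values up to 500 in each library were whole reads within 0.05, so reads were recovered, giving 13458890 to 22790073 per library. Counting error limits the precision of low genes.

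Reads were scaled by TMM over all 12 libraries (edgeR 4.0.16) for rods against retina and the interaction. Genotypes were compared within a fraction on the deposited values, with the pseudocount of 1 added, by limma 3.58.1 with trend (R 4.3.3). A gene needed a mean of 1 in a group, and p-values were adjusted by Benjamini-Hochberg over all genes tested. Levels per kilobase used exon lengths of GENCODE vM21 by gene identifier. Fitted fold changes of low genes are understated by the pseudocount. Scripts were tested on simulated data. Rods and retina libraries of the same number deviated together in all 6 pairs, a hint from the data since the labels give only the number (correlations of 0.163 to 0.397 over 12918 genes), whereas numbers did not pair the genotypes.

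Alternatives were scaling by total reads or RLE, the deposited values, edgeR's quasi-likelihood test, DESeq2 1.42.0, a pseudocount of 0.1, other filters, a replicate block, 1 fit of all libraries and leaving out each library. Members and lists were chosen with earlier results of these data known. Genes given in every library were the 8 highest and 8 lowest ratios in control mice, the 6 highest levels per kilobase in each fraction, and the 5 smallest p of each genotype comparison. Some of these genes are not reported here. Genes at the ends of their class could also be named. Grin1, Gabre, Grin1os, the remaining members given by a fold change alone and the genes named from the 4 pathway lists were added after their values were seen.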

Additional observations from a re-analysis of the deposited data

How the results depend on the processing

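Only 29 of 52 members had 10 reads in every rods library, and 3 libraries a group leave small genotype differences undetected at this depth. TMM scaling of rods with retina assumes that most genes do not differ. On that scale, however, 23.5% of genes were called higher and 35.5% lower in rods in control mice.

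The 2 members higher in rods became 0 in both genotypes with scaling by total reads and with the deposited values, scales on which the median of all genes in control mice moved from -0.37 to -0.76 and -0.80. On them Grin2d reversed, to -0.039 and -0.084 in control mice and to -0.025 and -0.044 in Pkm2 Rodko mice. Requiring 10 reads in every library left 29 members and 27 lower in both genotypes, because fewer genes were tested. Grin3b in control mice reversed to 0.11 without control rods replicate 1, and its range over libraries left out was -0.90 to 0.11. With 1 or more reads in any library, 49 members counted as detected in rods, as did 25522 of all genes. Leaving out 1 library gave 1 to 2 members higher and always 47 lower in control mice, always 2 higher and 45 to 48 lower in Pkm2 Rodko mice, 29 to 31 detected in rods and 46 to 47 in retina, and 0 called in the genotype and interaction tests. In the Pkm2 Rodko comparison Gabra5 lost its call with the replicate block, without Pkm2_Rodko rods replicate 2 or 3 or retina replicate 2 or 3, and with a pseudocount of 0.1.

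With rods and retina paired by replicate number, 2 members were higher and 47 lower in each genotype, and 0 were called in the interaction. Grin3b in Pkm2 Rodko mice passed with this pairing (-1.25). In the genotype comparisons the block matched control and Pkm2 Rodko libraries of the same number, although numbers did not pair the genotypes. It called 0 members there. The members' median in rods between genotypes ranged from -0.55 to -0.13 when 1 library was left out, and was -0.44 by edgeR.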
